A study of Mus musculus with 16 samples.

Results

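The genes described here are 38 interferon-stimulated genes of mouse liver, taken by gene symbol from the 17410 genes of the deposited tables, and each of them was listed in all 16 livers. Of these, 24 make up a type I style set (the Oas, Oasl, Ifit and Mx families, Isg15, Rsad2 and their regulators and sensors). The other 14 make up a gamma style set (the guanylate-binding proteins, the immunity-related GTPases, Irf1 and the antigen-processing genes Psmb8, Psmb9 and Tap1). The names of the sets follow the interferon for which each family is best known, and many of the genes respond to both kinds.

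RNA of whole liver was sequenced as 1 library per liver, 4 per group, in a pair of experiments on ChREBPα, a product of Mlxipl, whose proteins switch on sugar-responsive genes. WT_NASH (livers 17 to 20) and LKO_NASH (livers 21 to 24) were both Chrebpα-flox/flox mice, which received an adeno-associated virus carrying GFP or Cre, respectively, under TBG, a hepatocyte promoter, so that other liver cells were not the target of Cre. Both ate a NASH diet for 12 weeks, with 40% of calories as fat, 20% as fructose and 2% cholesterol, and the labels give no age for them. Ad_GFP_HFLMCD (livers 9 to 12) and Ad_Chrebpa_HFLMCD (livers 13 to 16) were wildtype mice put on a choline-free diet (HFLMCD, 45% of calories as fat, 0.1% added methionine) at 2 months of age for 3 weeks. Both of these groups were given adenovirus, for GFP or for Chrebpα, 1 week before dissection, so their comparison holds the presence of adenovirus constant. Nothing in the labels says that numbered samples were different animals, so every p-value here reflects sample-to-sample spread, which may be partly technical.

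Interferons are secreted proteins that warn cells of infection. Type I interferons act through a receptor whose signal reaches an interferon-stimulated response element (ISRE) by way of STAT2 and IRF9, while interferon gamma acts on a gamma-activated site (GAS) and through IRF1. In liver, hepatocytes, Kupffer cells and sinusoidal endothelium can all respond, and the induced proteins block viral replication, load peptides on MHC class I or attack pathogen vacuoles.

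Promoter stretches of genes described below are shown because they hold the letters of the ISRE, in Igtp and Tgtp1 beside those of the GAS. RefSeq promoter entries of the mouse build GRCm38.p6 were matched for 29 of the 38 genes, and the 250 bases before each start were searched for GAAA followed after 2 bases of any kind by GAAA again (ISRE, either strand) and TTCNNNGAA (GAS, the same on both strands), with overlapping matches counted. ISRE letters were found in 15 of the 29 genes (51.7%), against 936 of 27025 genes in the promoter table (3.46%), and GAS letters in 9 of 29 (31.0%), against 8.13%. ISRE letters stood in 8 of 17 type I style genes and 7 of 12 gamma style genes, and GAS letters in 3 of 17 and 6 of 12. A match describes the letters only and is not evidence of binding. In the stretches below, written 5′ to 3′ on the gene's strand, capitals mark matched letters, and neighbouring ISRE matches may overlap.
Oas1a, chr5:120907526-120907555, minus strand: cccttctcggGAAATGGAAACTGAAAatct
Ifit1, chr19:34640775-34640823, plus strand: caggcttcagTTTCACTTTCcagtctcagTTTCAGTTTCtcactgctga
Isg15, chr4:156200865-156200906, minus strand: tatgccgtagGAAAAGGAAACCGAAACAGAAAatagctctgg
Rsad2, chr12:26456553-26456582, minus strand: ctggtccaacTTTCATTTTCagaaaacaga
Gbp2, chr3:142620594-142620623, plus strand: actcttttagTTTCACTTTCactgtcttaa
Gbp3, chr3:142559989-142560024, plus strand: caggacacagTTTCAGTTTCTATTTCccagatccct
Irgm1, chr11:48871425-48871460, minus strand: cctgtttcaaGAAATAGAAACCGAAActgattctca
Igtp, chr11:58199501-58199541, plus strand: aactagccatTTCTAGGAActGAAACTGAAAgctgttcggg
Tgtp1, chr11:48992304-48992344, minus strand: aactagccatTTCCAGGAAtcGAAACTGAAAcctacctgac
Igtp and Tgtp1, both immunity-related GTPases on chromosome 11, carried a GAS match followed by an ISRE match in the same arrangement, and Isg15 carried 3 ISRE matches in a row. The promoter entries of Psmb9 (chr17:34187281-34187580, minus strand) and Tap1 (chr17:34187306-34187605, plus strand) overlapped. Neither held either motif in the 250 bases searched before its start.

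Library totals ran from 21254937 to 40327264 expected counts, the counting program's estimate of the reads from each gene. Mlxipl, counted over all its isoforms, lay at 47.5 to 100 FPKM (a level corrected for transcript length and library size) in LKO_NASH and 50.1 to 80.4 in WT_NASH, at a log2 fold change of 0.05 and adjusted p of 0.916 in edgeR. In the HFLMCD livers it lay at 44.7 to 47.8 FPKM with the Chrebpα virus and 39.0 to 48.5 with the GFP virus (0.15, adjusted p = 0.241), so the whole-gene value does not check the labels. A pair of livers stood apart in the interferon-stimulated genes, liver 21 of LKO_NASH and liver 15 of Ad_Chrebpa_HFLMCD, and values without them are given beside the results that they moved. Liver 21 also differed from its own group for Stat3, a signal transducer shared by many cytokines, at 48.3 FPKM against 20.9 to 22.1 in livers 22 to 24 and 37.9 to 47.3 in WT_NASH.

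Liver 15 was the highest of its group for 34 of the 38 genes, including all 14 gamma style genes, while it was the highest for 30.9% of all genes tested. Liver 21 was the highest for 24 of the 38, including 13 of 14 gamma style genes, against 29.4% of all genes. Liver 24 was the highest for 12 of the 24 type I style genes, against 34.5% of all genes. On log2 CPM (edgeR's scaled counts), relative to the mean of the group's control livers, the gamma style median was 1.53 in liver 21 and 1.28 in liver 15, and between 0.07 and 0.31 in the other 6 livers of those groups. The type I style median was 0.63 in liver 21 and 0.60 in liver 15, and -0.08 to 0.47 in the other 6. The median over all genes tested stayed between 0.00 and 0.02 in these 8 livers.

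**Figure D1:**
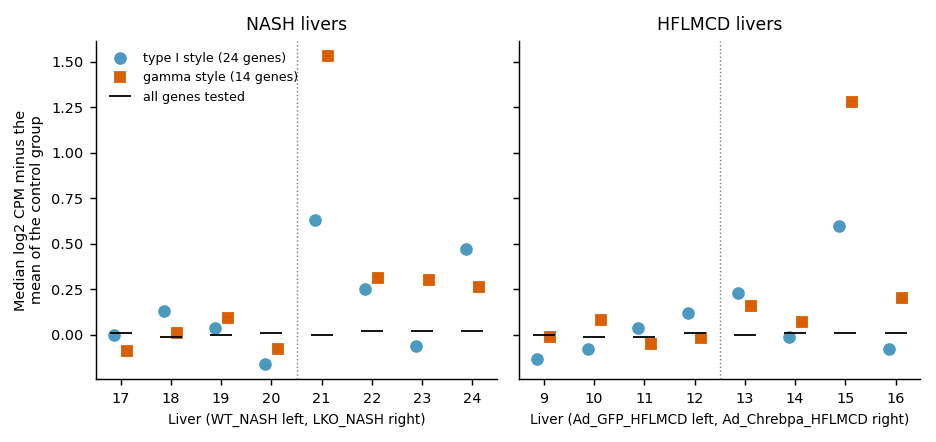
Median log2 CPM of the 24 type I style genes (circles) and 14 gamma style genes (squares) in each liver, relative to the mean of the control group of its experiment, with the median of all genes tested as a short line. Gamma style medians reach 1.53 in liver 21 and 1.28 in liver 15, and the control livers lie near 0.

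Across the 16 livers the genes covered a wide range of levels. Mean FPKM in WT_NASH ran from 0.27 for Mx1, a dynamin-like GTPase against influenza-type viruses, to 114.7 for Bst2, the tetherin that holds budding virions at the membrane. In Ad_Chrebpa_HFLMCD the range ran from 1.87 for Mx1 to 157 for Iigp1, an immunity-related GTPase that attacks pathogen vacuoles. The lowest expected count of any of the 38 genes in any liver was 13.2, for Mx1. Oas1a, Tgtp1 and the Gbp, Ifit and Oasl genes have close copies in the mouse genome, so their levels are uncertain where the authors' counting divided shared reads.

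**Figure D2:**
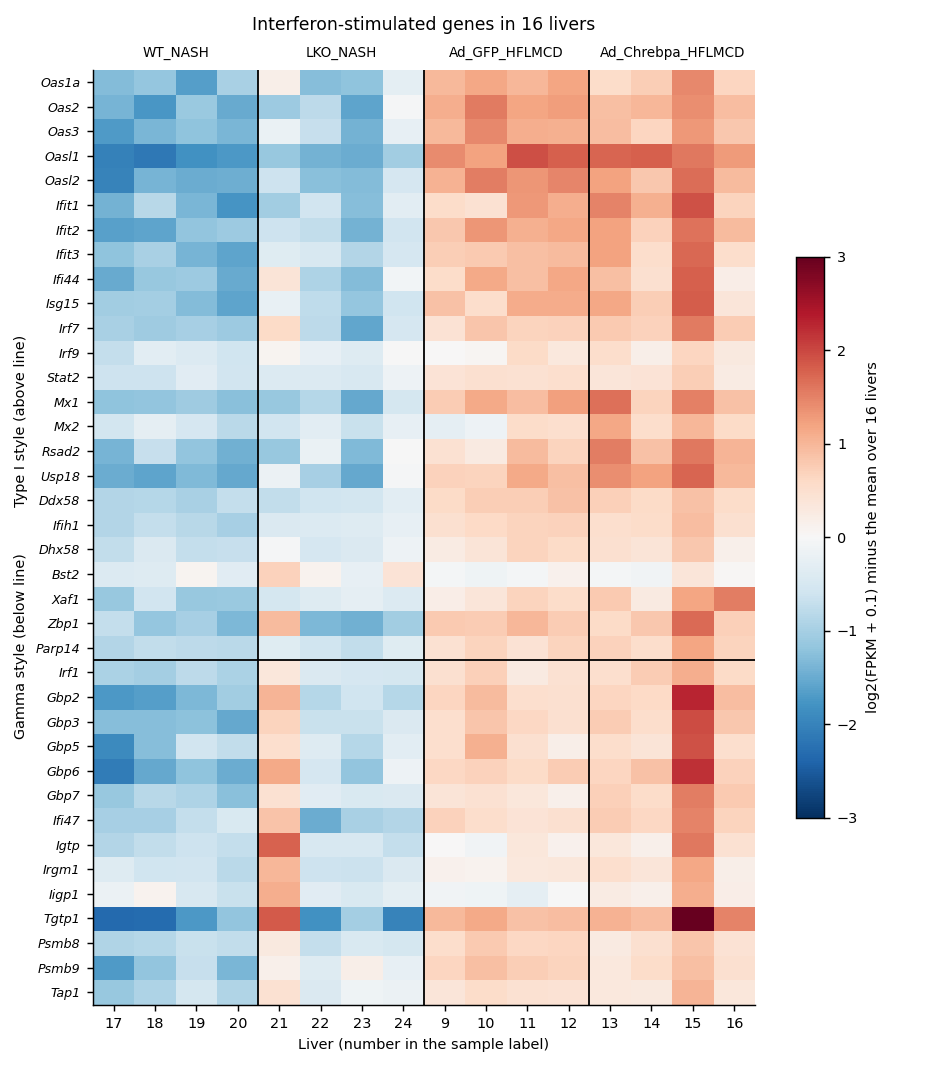
Level of each of the 38 genes (vertical axis, type I style above the line, gamma style below) in each liver (horizontal axis), as log2(FPKM + 0.1) minus the gene's mean over 16 livers, red above and blue below that mean. The HFLMCD livers are redder than the NASH livers for most genes, and livers 15 and 21 stand out in the gamma style rows.

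The first comparison asked how the genes differed between NASH-diet livers with and without hepatocyte Cre. Most were measured higher in LKO_NASH, but none passed the test. Of the 38 genes, 37 had a positive log2 fold change, with a median of 0.54 against 0.01 over all 12786 genes tested, of which 51.5% were positive. edgeR called 0 of the 38, and it called 0.0% of all genes higher and 0.0% lower. In simulated data this fit recovered 14% of 1.5-fold and 66% of 2-fold changes, so most changes of 1.5-fold would be missed. With p below 0.05 before adjustment, 16 of the 38 were higher and 0 lower, against 7.7% and 5.88% of all genes tested. DESeq2 called 2 higher, Gbp6 and Psmb9, against 0.704% of all genes, and gave no adjusted p for Igtp, Tgtp1 and Zbp1. The gamma style median was 0.80 and the type I style median 0.46. Without liver 21 the median over the 38 genes was 0.31, with 32 positive and 0 called by edgeR, when 3.24% of all genes were called. In that setting 12 had a higher and 1 a lower value with p below 0.05 before adjustment, against 13.6% and 15.0% of all genes.

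The groups did not overlap in FPKM for 12 of the 38 genes, all higher in LKO_NASH, when 6.93% of all genes tested were higher without overlap and 0.673% lower. FPKM is scaled differently from the counts in edgeR, and the all-gene median was itself 0.10 on log2(FPKM + 1). Of these genes Oasl2, Ifit3, Gbp6, Xaf1 and Tap1 overlapped between the groups on log2 CPM.

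Among the antigen-processing genes, Psmb9, an interferon-inducible subunit of the immunoproteasome, read 5.76, 8.26, 11.7 and 7.25 FPKM in the WT_NASH livers and 20.9, 14.5, 21.4 and 15.7 in the LKO_NASH livers, in order of liver number. All 4 LKO_NASH livers were above all 4 WT_NASH livers, and liver 23, not liver 21, was the highest. Its log2 fold change was 1.00 ± 0.23 (SE, adjusted p = 0.305), the lowest adjusted p of the 38 genes, and 0.90 without liver 21 (adjusted p = 0.0662). Tap1, the transporter that carries peptides into the endoplasmic reticulum, read 6.08, 7.13, 9.29 and 7.15 in WT_NASH and 18.5, 10.0, 12.3 and 12.1 in LKO_NASH. Tap1 did not overlap between groups in FPKM either, but did on log2 CPM. Its log2 change was 0.69 ± 0.21 (SE, adjusted p = 0.319), and 0.46 without liver 21. Psmb8, another immunoproteasome subunit, read 14.3, 14.7, 16.9 and 15.8 in WT_NASH and 32.9, 16.1, 19.4 and 18.4 in LKO_NASH. For Psmb8 the groups overlapped at livers 19 and 22 and liver 21 was far above the rest, and its log2 change of 0.36 ± 0.22 (SE, adjusted p = 0.462) became 0.05 without liver 21.

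The guanylate-binding proteins, large GTPases that coat pathogens and vacuoles, were positive in 5 of 5 genes with a median of 1.08. In FPKM 4 of the 5 did not overlap between groups, though Gbp6 among them overlapped on log2 CPM. Gbp2 read 1.82, 1.93, 2.41 and 2.97 FPKM in WT_NASH and 12.7, 3.39, 4.12 and 3.41 in LKO_NASH. Liver 21 was above even the Ad_GFP_HFLMCD livers, and the other 3 LKO_NASH livers lay just above WT_NASH. Gbp3 read 1.99, 1.99, 2.06 and 1.65 in WT_NASH and 8.01, 3.11, 3.08 and 3.66 in LKO_NASH. Gbp6 read 1.42, 2.14, 2.71 and 2.20 in WT_NASH and 14.1, 4.49, 2.76 and 5.72 in LKO_NASH. Liver 21 was the highest for both, and liver 23 was just above the highest WT_NASH liver for Gbp6. The log2 fold changes were 1.25 ± 0.45 (SE, adjusted p = 0.352) for Gbp2, 1.08 ± 0.32 (SE, adjusted p = 0.319) for Gbp3 and 1.55 ± 0.46 (SE, adjusted p = 0.319) for Gbp6. Without liver 21 they were 0.51, 0.60 and 0.85, and the median of the 5 guanylate-binding proteins was 0.51. Without livers 19 and 21, a setting chosen after seeing the data, edgeR called 4 of the 38 genes higher (Gbp3, Gbp6, Psmb9 and Tap1), against 4.84% of all genes. Liver 19 was the highest WT_NASH liver for all 4 of these, so leaving it out lowered their control means.

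The immunity-related GTPases were led by liver 21 alone. Igtp, a regulatory member of the family, read 12.0, 13.2, 14.3 and 13.4 FPKM in WT_NASH and 75.8, 15.8, 15.9 and 13.5 in LKO_NASH. Irgm1, another regulator, which keeps the effector GTPases off the cell's own membranes, read 20.4, 17.4, 17.7 and 15.0 in WT_NASH and 52.8, 17.2, 17.0 and 19.6 in LKO_NASH. Iigp1 read 99.1, 122, 80.8 and 71.0 in WT_NASH and 239, 89.3, 82.2 and 91.3 in LKO_NASH. In all 3 genes liver 21 was far above the next liver of its group, and livers 22 to 24 overlapped WT_NASH. Log2 fold changes were 1.08 ± 0.55 (SE, adjusted p = 0.406) for Igtp, 0.46 ± 0.38 (SE, adjusted p = 0.552) for Irgm1 and 0.28 ± 0.38 (SE, adjusted p = 0.719) for Iigp1. Without liver 21 they were 0.02, -0.15 and -0.27. Tgtp1, of the same family, had the largest log2 fold change of the 38 genes, 2.00 ± 0.88 (SE, adjusted p = 0.367). Tgtp1 read 19.8 FPKM in liver 21 against 1.29 to 2.64 in the rest of LKO_NASH and 0.99 to 2.33 in WT_NASH. Its value without liver 21 was 0.13. Over the 5 immunity-related GTPases the median was 0.46 with 5 positive, and -0.15 with 2 positive without liver 21.

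Of the 4 transcription factors, 0 were called, and Irf1 was the one whose groups did not overlap. Irf1, the factor that carries much of the gamma response, read 7.73, 7.34, 8.64 and 7.76 FPKM in WT_NASH and 18.9, 11.2, 10.5 and 10.4 in LKO_NASH. Its groups did not overlap, with a log2 change of 0.56 ± 0.21 (SE, adjusted p = 0.356) that was 0.27 without liver 21. Irf7, the amplifier of type I interferon production, read 13.8, 12.9, 13.6 and 12.7 in WT_NASH and 40.8, 15.7, 9.25 and 19.1 in LKO_NASH. All 4 WT_NASH livers lay close together and the LKO_NASH livers fell on both sides of them, and the log2 change of 0.55 ± 0.38 (SE, adjusted p = 0.499) became -0.02 without liver 21. Stat2, a subunit of the factor that binds the ISRE, read 8.72, 8.76, 10.6 and 9.03 in WT_NASH and 10.1, 10.1, 9.66 and 12.1 in LKO_NASH. Its groups overlapped, with a log2 change of 0.02 ± 0.09 (SE, adjusted p = 0.904).

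Among the antiviral effectors, 14 of 15 were positive with a median of 0.47, which was 0.47 without liver 21 as well. Oasl1, a relative of the oligoadenylate synthetases that restrains Irf7 translation, read 1.49, 1.37, 1.75 and 1.88 FPKM in WT_NASH and 2.86, 2.34, 2.20 and 3.05 in LKO_NASH. Its groups did not overlap, livers 21 and 24 were the higher LKO_NASH livers, and the log2 fold change was 0.54 ± 0.15 (SE, adjusted p = 0.31). Ifit3, of the family that binds viral RNA, read 4.84, 5.63, 4.21 and 3.69 in WT_NASH and 8.73, 8.01, 6.08 and 7.83 in LKO_NASH. Its groups did not overlap in FPKM but did on log2 CPM, with a log2 change of 0.58 ± 0.18 (SE, adjusted p = 0.319). Ifit1, of the same family, read 2.00, 3.03, 2.06 and 1.53 in WT_NASH and 2.62, 3.67, 2.21 and 4.41 in LKO_NASH. Its groups overlapped, and its log2 fold change was 0.42 ± 0.26 (SE, adjusted p = 0.464).

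Oas1a, an oligoadenylate synthetase that activates RNase L, read 2.27, 2.50, 1.75 and 2.85 FPKM in WT_NASH and 6.48, 2.28, 2.40 and 4.66 in LKO_NASH. Oas3, of the same enzyme family, read 0.38, 0.50, 0.57 and 0.50 in WT_NASH and 1.25, 0.86, 0.48 and 1.22 in LKO_NASH. Both overlapped between groups, through livers 22 and 23 for Oas1a and liver 23 for Oas3. The log2 fold changes were 0.61 ± 0.34 (SE, adjusted p = 0.429) for Oas1a and 0.82 ± 0.28 (SE, adjusted p = 0.343) for Oas3, and without liver 21 they were 0.23 and 0.64. Rsad2 (viperin, which makes a chain-terminating nucleotide) read 1.31, 2.22, 1.55 and 1.27 in WT_NASH and 1.61, 3.15, 1.39 and 3.61 in LKO_NASH. Livers 22 and 24 were high and livers 21 and 23 lay within WT_NASH, so that liver 21 was not raised for this gene. Rsad2 had a log2 change of 0.45 ± 0.31 (SE, adjusted p = 0.497). Mx1 read 0.26, 0.27, 0.30 and 0.25 in WT_NASH and 0.28, 0.36, 0.19 and 0.48 in LKO_NASH, also with liver 21 inside the WT_NASH range. For Mx1 the log2 fold change was 0.12 ± 0.27 (SE, adjusted p = 0.83), and Mx2 was the only negative value of the 38, at -0.06.

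Xaf1, a pro-apoptotic interferon target, read 1.54, 2.36, 1.54 and 1.59 FPKM in WT_NASH and 2.44, 2.66, 2.90 and 2.65 in LKO_NASH. Its groups did not overlap in FPKM but did on log2 CPM, with a log2 change of 0.47 ± 0.17 (SE, adjusted p = 0.356). Bst2 read 103, 104, 144 and 108 in WT_NASH and 220.4, 147, 115 and 180.2 in LKO_NASH. Its groups overlapped through livers 19 and 23, with a log2 change of 0.38 ± 0.20 (SE, adjusted p = 0.41) and 0.18 without liver 21. Isg15, the ubiquitin-like modifier, read 5.70, 5.75, 4.74 and 3.87 in WT_NASH and 10.1, 6.96, 5.26 and 7.74 in LKO_NASH. Liver 23 lay inside the WT_NASH range, and the log2 fold change was 0.43 ± 0.23 (SE, adjusted p = 0.423), or 0.23 without liver 21. Ifih1 (MDA5, a sensor of double-stranded RNA) read 4.91, 5.53, 5.08 and 4.50 in WT_NASH and 6.72, 6.82, 6.94 and 7.67 in LKO_NASH. Its groups did not overlap, liver 21 was the lowest of LKO_NASH, and the log2 fold change was 0.34 ± 0.10 (SE, adjusted p = 0.314). Zbp1, a sensor of left-handed nucleic acids, read 27.0 in liver 21 and 5.05 to 6.70 in the other LKO_NASH livers, against 5.41 to 8.44 in WT_NASH, and its log2 fold change of 0.75 became -0.26 without liver 21.

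**Figure D3:**
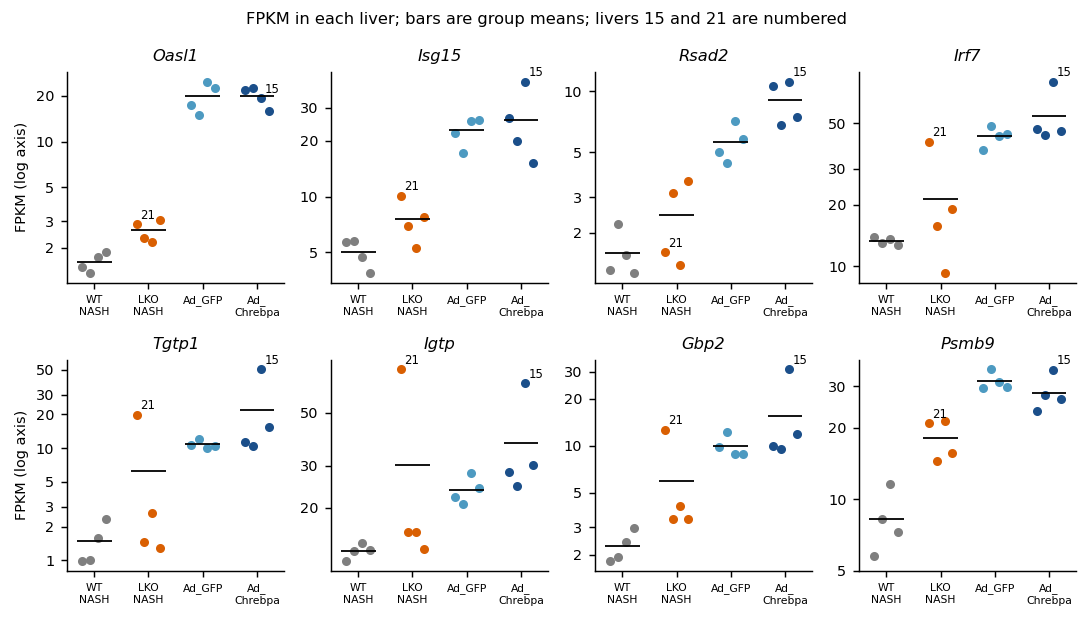
FPKM of 8 of the genes in each liver on a logarithmic axis, grouped by WT_NASH, LKO_NASH, Ad_GFP_HFLMCD and Ad_Chrebpa_HFLMCD, with bars at the group means and livers 15 and 21 numbered. Tgtp1, Igtp and Gbp2 are high in livers 21 and 15 alone within their groups, while in LKO_NASH Oasl1, Rsad2 and Psmb9 are highest in another liver.

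The comparison of Ad_Chrebpa_HFLMCD with Ad_GFP_HFLMCD asked how the genes differed when Chrebpα was added by adenovirus, both groups being virus-treated. Rsad2 and Gbp7 rose, and no gene of the 38 fell. These were 2 of 38 called higher and 0 lower by edgeR, against 4.95% and 3.18% of the 13658 genes tested, so the share among the 38 was near that of all genes. Of the 38, 32 were positive with a median of 0.30, against a median of -0.01 over all genes with 47.4% positive, and 13 were higher with p below 0.05 before adjustment, against 13.5% of all genes. The gamma style median was 0.54 and the type I style median 0.20. Without liver 15 the median was 0.12 with 22 positive, and 2 were called higher (Gbp7 and Iigp1) and 1 lower (Oas1a), against 2.9% and 1.52% of all genes. DESeq2 called 5 higher (Mx2, Rsad2, Usp18, Gbp7 and Iigp1), against 8.06% of all genes, and limma on log2(FPKM + 1) called 0, against 3.19%. The calls changed when single livers were left out. edgeR called 0 of the 38 without liver 9, 10, 12, 13 or 16. It called 1 without liver 11 (Rsad2) and 4 without liver 14 (Rsad2, Gbp7, Iigp1 and Xaf1). Over all genes, 376 of 13764 were called higher without liver 11 and 937 of 13761 without liver 14. Without liver 16 there were 263 of 13774. FPKM did not overlap for 2 of the 38, both higher (Gbp7 and Iigp1), against 4.84% of all genes.

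Rsad2 read 5.02, 4.43, 7.15 and 5.83 FPKM in Ad_GFP_HFLMCD and 10.6, 6.78, 11.1 and 7.48 in Ad_Chrebpa_HFLMCD. Livers 13, 15 and 16 were above all the control livers and liver 14 was within their range. The log2 fold change was 0.75 ± 0.20 (SE, adjusted p = 0.0454), and 0.65 without liver 15 (adjusted p = 0.102). Mx2, a relative of Mx1, read 1.24, 1.36, 2.27 and 2.17 in Ad_GFP_HFLMCD and 3.53, 2.24, 3.14 and 2.32 in Ad_Chrebpa_HFLMCD, where livers 13 and 15 were again the higher ones. For Mx2 the log2 change was 0.74 ± 0.24 (SE, adjusted p = 0.0809). Mx1 read 1.32, 1.73, 1.48 and 1.86 in Ad_GFP_HFLMCD and 2.53, 1.22, 2.29 and 1.43 in Ad_Chrebpa_HFLMCD. Its groups overlapped, with a log2 change of 0.30 ± 0.23 (SE, adjusted p = 0.452). Usp18, the protease that removes ISG15 and damps the receptor, read 14.9, 14.6, 20.2 and 17.3 in Ad_GFP_HFLMCD and 24.5, 21.2, 31.2 and 18.0 in Ad_Chrebpa_HFLMCD. Liver 16 overlapped the controls, and the log2 fold change was 0.57 ± 0.17 (SE, adjusted p = 0.063). Xaf1 read 4.06, 4.59, 5.70 and 5.20 in Ad_GFP_HFLMCD and 6.14, 4.28, 8.17 and 10.4 in Ad_Chrebpa_HFLMCD, and was highest in liver 16. Xaf1 had a log2 change of 0.61 ± 0.23 (SE, adjusted p = 0.124). Without liver 15 the values were 0.70 for Mx2, 0.20 for Mx1, 0.42 for Usp18 and 0.56 for Xaf1.

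The remaining type I style genes did not pass the test. Ifit1 read 8.11, 7.57, 13.6 and 11.8 FPKM in Ad_GFP_HFLMCD and 15.6, 11.7, 20.9 and 8.83 in Ad_Chrebpa_HFLMCD. Ifit3 read 18.7, 19.5, 21.0 and 21.8 in Ad_GFP_HFLMCD and 26.2, 16.2, 37.2 and 16.3 in Ad_Chrebpa_HFLMCD. Isg15 read 22.0, 17.2, 25.7 and 25.8 in Ad_GFP_HFLMCD and 26.4, 19.9, 41.6 and 15.2 in Ad_Chrebpa_HFLMCD. In each, livers 13 and 15 were above the control range and livers 14 and 16 were within or below it, so the groups overlapped. Their log2 fold changes were 0.54 ± 0.27 (SE, adjusted p = 0.236), 0.31 ± 0.24 (SE, adjusted p = 0.436) and 0.25 ± 0.27 (SE, adjusted p = 0.604), and without liver 15 they were 0.31, 0.03 and -0.07. Oasl1 read 17.4, 15.0, 24.8 and 22.6 in Ad_GFP_HFLMCD and 21.7, 22.5, 19.2 and 15.8 in Ad_Chrebpa_HFLMCD, with a log2 change of 0.06 ± 0.17 (SE, adjusted p = 0.858). Oas1a read 11.2, 12.9, 11.4 and 13.0 in Ad_GFP_HFLMCD and 8.43, 9.52, 15.7 and 8.98 in Ad_Chrebpa_HFLMCD. For Oas1a the group of the Chrebpα virus was split, with liver 15 above every control liver and livers 13, 14 and 16 below them. Its log2 fold change was -0.12 ± 0.17 (SE, adjusted p = 0.701), and without liver 15 it fell by 0.35 on the log2 scale (adjusted p = 0.0378). Bst2 read 132, 125, 131 and 149 in Ad_GFP_HFLMCD and 130.3, 127, 176 and 139.8 in Ad_Chrebpa_HFLMCD, overlapping, with a log2 change of 0.16 ± 0.10 (SE, adjusted p = 0.354) and 0.06 without liver 15.

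Gbp7 read 6.38, 6.68, 6.18 and 5.39 FPKM in Ad_GFP_HFLMCD and 8.05, 7.14, 14.2 and 8.48 in Ad_Chrebpa_HFLMCD. All 4 livers with the Chrebpα virus were above all 4 control livers, and liver 15 was the highest. The log2 fold change was 0.69 ± 0.19 (SE, adjusted p = 0.0497), and 0.44 without liver 15 (adjusted p = 0.0293). Iigp1 read 104, 102, 93.5 and 110.5 in Ad_GFP_HFLMCD and 134, 125, 241 and 129.9 in Ad_Chrebpa_HFLMCD. This gene did not overlap between groups either, with a log2 change of 0.68 ± 0.19 (SE, adjusted p = 0.0529) and 0.41 without liver 15 (adjusted p = 0.0178).

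For the other gamma style genes liver 15 was the library that stood out. Gbp2 read 9.88, 12.2, 8.89 and 8.80 FPKM in Ad_GFP_HFLMCD and 9.91, 9.51, 30.9 and 11.9 in Ad_Chrebpa_HFLMCD. Gbp3 read 7.08, 8.91, 7.69 and 6.96 in Ad_GFP_HFLMCD and 8.55, 7.18, 19.6 and 8.79 in Ad_Chrebpa_HFLMCD. Tgtp1 read 10.7, 12.2, 10.1 and 10.4 in Ad_GFP_HFLMCD and 11.3, 10.4, 50.1 and 15.3 in Ad_Chrebpa_HFLMCD. Liver 15 exceeded each of the other 3 livers of its group more than 2 times in all 3 genes, and those livers overlapped the controls. Log2 fold changes were 0.71 ± 0.34 (SE, adjusted p = 0.214) for Gbp2, 0.60 ± 0.27 (SE, adjusted p = 0.197) for Gbp3 and 1.07 ± 0.44 (SE, adjusted p = 0.158) for Tgtp1, and without liver 15 they were 0.16, 0.18 and 0.27. Igtp read 22.2, 20.7, 28.0 and 24.1 in Ad_GFP_HFLMCD and 28.2, 24.6, 66.5 and 30.3 in Ad_Chrebpa_HFLMCD. Irgm1 read 29.1, 28.5, 33.0 and 33.5 in Ad_GFP_HFLMCD and 37.8, 34.3, 59.7 and 29.9 in Ad_Chrebpa_HFLMCD. Ifi47, another GTPase of this family, read 21.7, 19.5, 17.9 and 18.9 in Ad_GFP_HFLMCD and 22.8, 20.8, 38.2 and 21.4 in Ad_Chrebpa_HFLMCD. These 3 overlapped between groups and had log2 fold changes of 0.72 ± 0.28 (SE, adjusted p = 0.136), 0.45 ± 0.18 (SE, adjusted p = 0.155) and 0.47 ± 0.18 (SE, adjusted p = 0.127). Without liver 15 they were 0.30 for Igtp, 0.21 for Irgm1 and 0.23 for Ifi47. Over the 5 immunity-related GTPases the median was 0.68, and 0.27 without liver 15, with 5 of 5 positive both times.

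Irf1 read 21.1, 24.9, 18.1 and 20.7 FPKM in Ad_GFP_HFLMCD and 21.2, 25.4, 31.9 and 22.4 in Ad_Chrebpa_HFLMCD, with a log2 change of 0.33 ± 0.12 (SE, adjusted p = 0.122). Irf7 read 36.9, 48.6, 43.2 and 44.4 in Ad_GFP_HFLMCD and 46.9, 43.9, 80.3 and 45.9 in Ad_Chrebpa_HFLMCD, with livers 13, 14 and 16 inside the control range and a log2 change of 0.39 ± 0.17 (SE, adjusted p = 0.185). Stat2 read 18.0, 19.0, 18.4 and 19.3 in Ad_GFP_HFLMCD and 17.4, 18.0, 22.6 and 16.1 in Ad_Chrebpa_HFLMCD, with a log2 change of 0.06 ± 0.09 (SE, adjusted p = 0.729). All 3 factors overlapped between the groups and were highest in liver 15, without which the values were 0.21 for Irf1, 0.16 for Irf7 and -0.04 for Stat2. Psmb8 read 38.4, 45.7, 40.9 and 41.6 in Ad_GFP_HFLMCD and 32.3, 37.5, 47.7 and 36.1 in Ad_Chrebpa_HFLMCD. Its log2 fold change was -0.05 ± 0.10 (SE, adjusted p = 0.797) and -0.16 without liver 15, and the median of the 3 antigen-processing genes was -0.05. Without liver 15, FPKM of 6 of the 38 genes was lower without overlap, against 18.2% of all genes, and these were Oas1a, Oas2, Oas3, Psmb8, Psmb9 and Tap1.

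**Figure D4:**
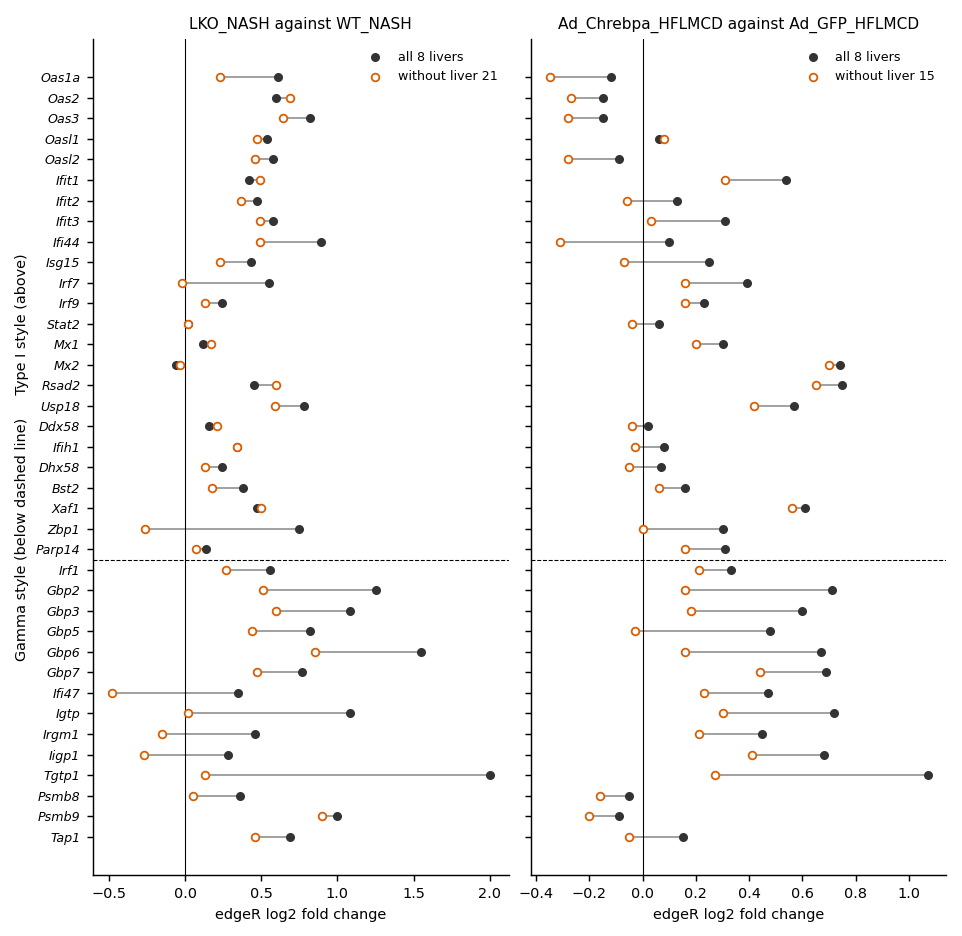
edgeR log2 fold change of each gene (vertical axis) with all 8 livers (filled points) and without liver 21 (left, LKO_NASH against WT_NASH) or without liver 15 (right, Ad_Chrebpa_HFLMCD against Ad_GFP_HFLMCD; open points). The gamma style medians move from 0.80 to 0.36 on the left and from 0.54 to 0.19 on the right, and Psmb9 on the left and Rsad2 on the right move little.

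The 2 effects were compared within a fit of all 16 libraries. Psmb9 was the only gene of the 38 called, with a difference (NASH effect minus HFLMCD effect) of 1.06 ± 0.26 (SE, adjusted p = 0.0455). Of all genes, 0.976% were called with a positive and 1.62% with a negative difference. The share called among the 38 was thus near that of all genes. Genes not called were not shown to have equal effects. Psmb9 passed edgeR's test in neither experiment on its own, with a log2 fold change of 1.00 in the NASH livers and -0.09 in the HFLMCD livers. The difference was 0.96 without liver 21 (adjusted p = 0.0297) and 1.18 without liver 15 (adjusted p = 0.0441). The call was kept when liver 15, 19, 21 or 22 was left out and lost when any other single liver was, with differences of 0.94 to 1.27 over these fits. In the fit without liver 21, Ifi47 and Iigp1 were also called, with differences of -0.98 and -0.97, when 7.44% of genes had a called negative difference.

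Between the control groups, Ad_GFP_HFLMCD against WT_NASH, the genes of both sets were higher in the HFLMCD livers. Diet, its duration, the kind of virus and the flox alleles all differed between these groups and cannot be told apart. Of the 38 genes 32 were called higher and 2 lower by edgeR, against 30.9% and 28.2% of the 13488 genes tested. The median log2 fold change was 1.17 against 0.01 over all genes, with 1.51 for the type I style and 0.81 for the gamma style set. With log2(FPKM + 1) all genes moved, to a median of 0.44, and limma called 36 of the 38 higher, against 73.1% of all genes. FPKM was higher without overlap for 35 of the 38, against 68.9% of all genes, the exceptions being Mx2, Iigp1 and Bst2.

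The oligoadenylate synthetase family led. Oasl1 had a mean of 19.9 ± 4.53 FPKM (SD, n = 4) in Ad_GFP_HFLMCD and 1.62 ± 0.234 in WT_NASH. This gave a log2 change of 2.99 ± 0.18 (SE, adjusted p = 2.02e-06), the largest of the 38 genes. Oasl2 read 1.00, 1.58, 1.48 and 1.51 in WT_NASH and 9.08, 12.7, 11.0 and 12.2 in Ad_GFP_HFLMCD, with a log2 change of 2.39 ± 0.15 (SE, adjusted p = 2.25e-06). Oas2 read 0.47, 0.35, 0.60 and 0.43 in WT_NASH and 3.09, 4.33, 3.34 and 3.48 in Ad_GFP_HFLMCD, with a log2 change of 2.30 ± 0.17 (SE, adjusted p = 4.28e-06). Not a single WT_NASH liver reached the lowest Ad_GFP_HFLMCD liver for these 3 genes. Oas3 stood at 2.16 and Oas1a at 1.76. Mx1 rose by 1.94 ± 0.17 (SE, adjusted p = 1.2e-05), whereas Mx2 stood at 0.16 ± 0.24 (SE, adjusted p = 0.588). Isg15 rose by 1.56, Ifit1 by 1.63, Ifit3 by 1.52 and Rsad2 by 1.20, all on the log2 scale and with adjusted p no higher than 0.000973.

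Gamma style genes ranged from -0.50 to 2.25. Tgtp1 rose by 2.25 ± 0.21 (SE, adjusted p = 1.84e-05), Gbp6 by 1.64 ± 0.15 (SE, adjusted p = 1.46e-05) and Gbp2 by 1.5 ± 0.15 (SE, adjusted p = 2.09e-05) on the log2 scale, and all 5 guanylate-binding proteins were called higher. Psmb9 rose by 1.31 ± 0.18 (SE, adjusted p = 0.000155) and Psmb8 by 0.81 ± 0.07 (SE, adjusted p = 1.12e-05), and all 3 antigen-processing genes were called higher. Of the 5 immunity-related GTPases, Tgtp1 and Ifi47 were called higher and Iigp1 lower, at -0.50 ± 0.18 (SE, adjusted p = 0.0341). Igtp stood at 0.22 ± 0.10 (SE, adjusted p = 0.0883) and Irgm1 at 0.19 ± 0.12 (SE, adjusted p = 0.202). Bst2 fell by 0.39 on the log2 scale (adjusted p = 0.0141). On log2(FPKM + 1) the values of Iigp1 and Bst2 were positive, at 0.16 and 0.24, so their direction differed between the scales. Among the transcription factors Irf7 rose by 1.09 ± 0.09 (SE, adjusted p = 7.7e-06), Irf1 by 0.80 ± 0.10 (SE, adjusted p = 7.07e-05) and Stat2 by 0.38 ± 0.08 (SE, adjusted p = 0.0016), and Irf9, the DNA-binding partner of STAT2, stood at 0.14 ± 0.14 (SE, adjusted p = 0.405).

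**Figure D5:**
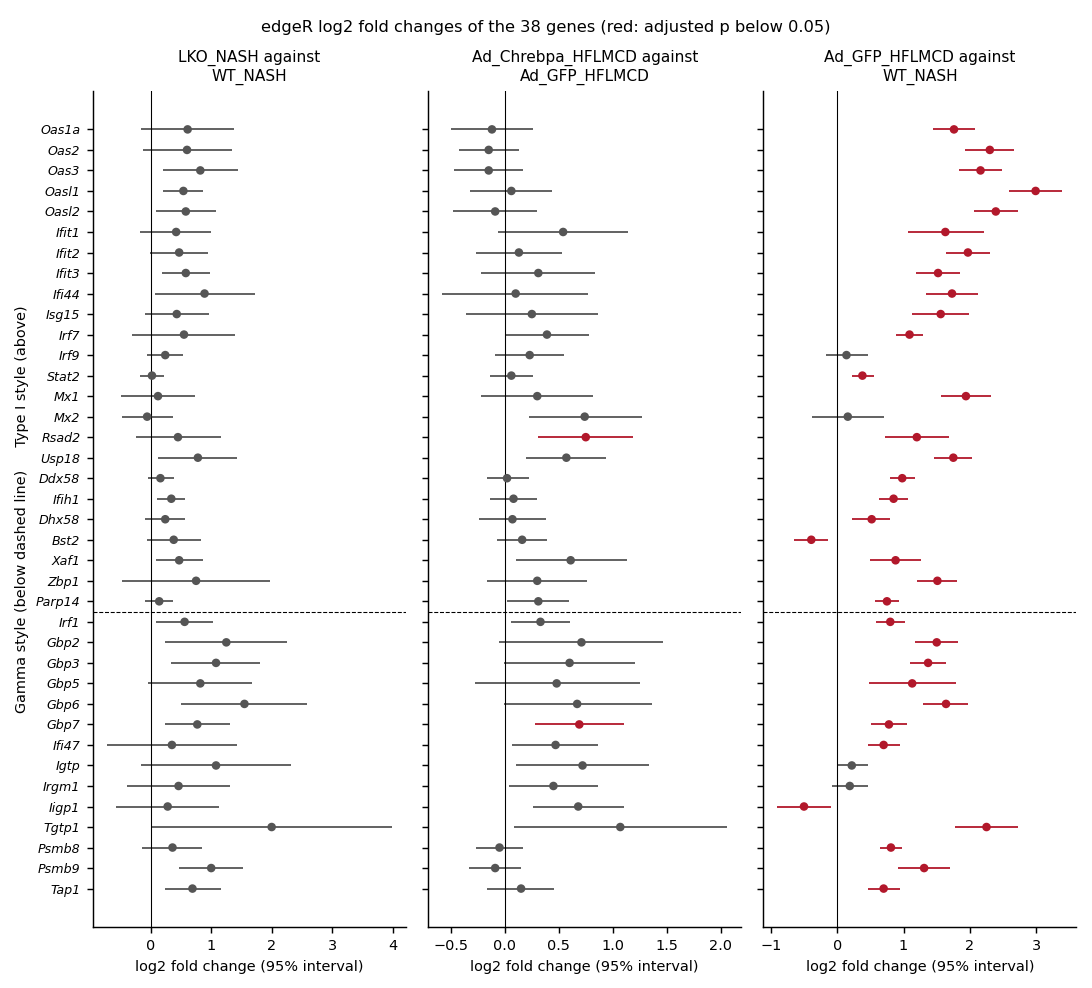
edgeR log2 fold change of each gene with its 95% interval in the deletion comparison (left), the overexpression comparison (middle) and the comparison of control groups (right), red where the adjusted p is below 0.05. No gene is red on the left, Rsad2 and Gbp7 are red in the middle, and 34 genes are red on the right, of which Bst2 and Iigp1 are below 0.

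The ligands themselves were barely measured. Ifnb1, a type I interferon, was listed in 4 of 16 livers with at most 0.13 FPKM, and Ifng in 13 livers with at most 0.23. Of the list of interferon ligands and receptors, 0 of 5 tested genes were called in the NASH comparison and 0 of 6 in the HFLMCD comparison. Between control groups 4 of 6 were called higher and 1 lower, with Ifngr1, the ligand-binding chain of the gamma receptor, at 1.30 ± 0.11 (SE, adjusted p = 8.79e-06). Signal transduction genes gave 0 of 13 called in either experiment, 2 lower in the NASH comparison without liver 21, and 6 higher and 3 lower between controls. These counts between controls, and those of the lists below, stand against 30.9% of all genes called higher and 28.2% lower. Counts of lists in the HFLMCD comparison stand against 4.95% higher and 3.18% lower, or 2.9% and 1.52% without liver 15. Those in the NASH comparison without liver 21 stand against 3.24% called in either direction. Of 12 genes that sense nucleic acids or relay that signal, 0 were called in the NASH comparison, 1 was higher in the HFLMCD comparison (Trim25, a ubiquitin ligase acting on RIG-I, 0.33 ± 0.07, adjusted p = 0.0203), and 8 were higher and 2 lower between controls. Trim25 was not called without liver 15, where 0 of the 12 were, and without liver 21 the NASH comparison called 1 of the 12 lower.

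A further 27 interferon-stimulated genes were positive for 25 in the NASH comparison, with a median of 0.34 and 0 called, and positive for 18 in the HFLMCD comparison, with a median of 0.04 and 0 called. Without liver 21 the NASH median was 0.26 with 19 positive, and without liver 15 the HFLMCD median was -0.04 with 8 positive. Between control groups 21 of these were called higher and 0 lower. Cxcl10, a T-cell-attracting chemokine, read 0.33, 1.53, 2.29 and 1.76 FPKM in WT_NASH and 4.76, 5.98, 4.44 and 5.41 in LKO_NASH. It did not overlap between those groups and was highest in liver 22, at a log2 change of 1.65 ± 0.41 (SE, adjusted p = 0.305). Cxcl9, a chemokine known as a gamma target, read 17.5 in liver 21 against 5.85 to 10.5 in the rest of LKO_NASH, and 48.6 in liver 15 against 8.67 to 14.8 in the rest of Ad_Chrebpa_HFLMCD.

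Markers of other liver cells moved with several of these results, and in bulk RNA more cells of a type and more RNA per cell cannot be told apart. For the labelled tissue, 9 of 9 hepatocyte markers were above 0 in every liver, with sums of 41500 to 67900 FPKM. In liver 15 the 12 T and NK cell markers summed to 30.2 FPKM against 8.56 to 12.9 in the rest of its group, and 10 of the 12 were highest there, with Ncr1 listed at 0 in some livers. In liver 21 they summed to 4.95 against 3.94 to 4.47 in the rest of its group, with 4 of 12 highest there. The WT_NASH livers were all lower, with sums of 2.09 to 2.95. Liver 15 was also the highest of its group for the summed markers of B and plasma cells (23.2 against 10.9 to 18.2), dendritic cells (6.89 against 4.15 to 6.32), stellate cells (458 against 372 to 381) and sinusoidal endothelium (124 against 89.9 to 113), and the lowest for hepatocytes (44200 against 47000 to 49300). Liver 21 was the lowest of its group for B and plasma cells (4.47 against 5.9 to 9.86) and sinusoidal endothelium (69.0 against 81.0 to 123). It was the highest for cholangiocytes (55.1 against 21.3 to 44.3) and neutrophils (5.74 against 2.02 to 5.26). For dendritic cells, stellate cells and hepatocytes it was neither. The 15 macrophage and Kupffer cell markers summed to 1560 in liver 15, within the 1130 to 1680 of its group, and to 414 in liver 21, within the 174 to 420 of its group.

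Those macrophage markers were positive for 15 of 15 genes in the NASH comparison with a median of 0.71 and 0 called, and summed to 126 to 271 FPKM in WT_NASH. Between control groups 13 of 15 were called higher and 1 lower, with sums of 1450 to 2190 in Ad_GFP_HFLMCD, and 10 of 11 tested T and NK cell markers were called higher. Hepatocyte markers were called lower for 9 of 9 there. In the NASH comparison 0 of 5 T and NK cell, 0 of 4 B and plasma cell, 0 of 5 dendritic cell and 0 of 9 hepatocyte markers were called, and without liver 21 hepatocyte markers gave 2 of 9 lower. In the HFLMCD comparison 1 of 9 hepatocyte markers, 1 of 15 macrophage markers, 0 of 12 T and NK cell markers, and 2 of 6 B and plasma cell markers were called higher. Among 6 dendritic cell markers, Siglech, which marks plasmacytoid cells, the main producers of type I interferon, was the gene called higher, at 1.16 ± 0.28 (SE, adjusted p = 0.0346). Without liver 15 these counts were 0 for hepatocyte, macrophage and dendritic cell markers, Siglech included, 1 of 6 higher for B and plasma cells and 1 of 12 lower for T and NK cells. Their part in the values of the 38 genes was not tested. Markers of neutrophils, sinusoidal endothelium, stellate cells and cholangiocytes gave 0 calls in the NASH comparison and, in the HFLMCD comparison, 4 of 6 cholangiocyte markers lower (2 without liver 15) and 0 calls in the other 3 lists. Between control groups 4 of 4 neutrophil, 7 of 8 stellate cell, 3 of 6 cholangiocyte, 4 of 6 dendritic cell and 2 of 6 B and plasma cell markers were called higher, 1 of 6 B and plasma cell markers lower, and 0 of 7 endothelial markers either way.

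How far the genes varied together was described by the correlation, over livers, of each pair's deviations from its group means, which rest on the same 16 libraries. Pairs of gamma style genes had a median r of 0.83 over 16 livers (91 pairs), and 0.05 over the 14 livers other than 15 and 21. Pairs of type I style genes had a median r of 0.50 (276 pairs), and 0.42 without those livers. Between the sets the median r was 0.43 over 16 livers and -0.05 without livers 15 and 21. Both livers were picked from the values of these same genes. The fall of r without them therefore describes those livers and is no separate support. Within LKO_NASH, liver 23 was the lowest for 19 of the 24 type I style genes, against 31.8% of all genes. Liver 24 was the highest for 12 of them, against 34.5%, and liver 21 for 13 of the 14 gamma style genes, against 29.4%.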

How the data were processed

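Whole-liver RNA of 16 mouse samples, 4 in each of 4 groups, was deposited as a table per sample. The authors' tables give an expected count per gene and an FPKM value, per the file headers. HISAT2 was used, per the submitters' processing notes. Its version, the build, the annotation and the counter were not given in the sources used here. The FPKM values were used as deposited, with unlisted entries set to 0, the lowest listed value being 0.01. Of 17436 entries, 26 named by transcript were summed into their gene, leaving 17410 genes. Rounding made the expected counts whole for the count tests, since 25.3 to 27.2% of the deposited values were not whole.

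Each comparison was fitted on its own 8 libraries, and the difference between effects on all 16, with edgeR 4.0.16 (filterByExpr, TMM scaling, quasi-likelihood F test, two-sided) in R 4.3.3, with Benjamini-Hochberg adjustment over all genes tested (12786 in the NASH, 13658 in the HFLMCD and 13488 in the control comparison). A gene was called at an adjusted p below 0.05. Alternatives were other size factors, no filter, DESeq2 1.42.0, limma 3.58.1 on log2(FPKM + 1) and log2(FPKM + 0.1), a fit of all 16 libraries, a minimum fold of 1.5, and leaving out each liver. Python 3.11.15 served for tables (NumPy 2.4.6, pandas 2.3.3 and SciPy 1.17.1) and figures (matplotlib 3.10.9). The fits were tested on simulated data with known changes, in which genes varied independently of each other. Of 1.5-fold changes, 14% were recovered in the NASH, 66% in the HFLMCD and 38% in the control comparison. For 2-fold changes these shares were 66%, 92% and 82%. False calls made up 8%, 5.9% and 6.2% of the calls. Libraries of a group differed beyond counting noise (chi-square per degree of freedom 17.2 to 240.3 over genes with at least 20 counts), so none was taken for a repeat deposit.

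The 38 genes, and 13 lists of pathway genes and cell markers (134 of 136 found), were chosen with earlier results of these data known. Named genes were 17 chosen by role, of the rest the 3 of each set with the lowest adjusted p in each comparison, and up to 3 of each list. Tgtp1, Zbp1 and Mx2 in the NASH comparison, the genes of small counts, Irf9, Stat3 and Cxcl9 were named after their values were seen. A further gene is not reported here.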

Additional observations from a re-analysis of the deposited data

Results flagged for a closer look

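In 152 sets of 4 livers (38 genes in 4 groups), 29 held a liver whose gap to the nearest other was, as a share of the group's range, above Dixon's 95% critical value. Chance gives about 1 in 20 such sets, and genes of a set are not independent. Of the 29, 23 were in liver 15 or liver 21. In liver 15 of Ad_Chrebpa_HFLMCD the gamma style genes were Gbp2 (30.92 FPKM), Gbp3 (19.62 FPKM), Gbp5 (5.36 FPKM), Gbp6 (29.66 FPKM), Ifi47 (38.2 FPKM), Igtp (66.45 FPKM), Iigp1 (240.82 FPKM), Tgtp1 (50.13 FPKM) and Tap1 (27.39 FPKM). The type I style genes of that liver were Oas1a (15.74 FPKM), Irf7 (80.29 FPKM), Ifih1 (17.39 FPKM) and Zbp1 (45.26 FPKM).

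In liver 21 of LKO_NASH the genes were Irf1 (18.95 FPKM), Gbp2 (12.7 FPKM), Gbp3 (8.01 FPKM), Gbp7 (6.65 FPKM), Ifi47 (24.6 FPKM), Igtp (75.8 FPKM), Irgm1 (52.82 FPKM), Iigp1 (238.73 FPKM), Tgtp1 (19.84 FPKM) and Zbp1 (27.0 FPKM). The other 6 were Stat2 (10.63 FPKM) and Bst2 (143.72 FPKM) high in liver 19, Dhx58 (4.14 FPKM) and Xaf1 (2.36 FPKM) high in liver 18, Gbp3 low in liver 20 (1.65 FPKM), and Zbp1 high in liver 11 (28.13 FPKM). Psmb9 was the gene called for a difference between the 2 effects, by 1.06 on the log2 scale (edgeR, adjusted p = 0.0455). That call was lost without the filter on low counts.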

How the results depend on the processing

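No paired analysis was possible because the groups share no replicate numbers. In the NASH comparison, DESeq2 called 2 of the 38 genes, the fit of all 16 libraries 1, and the fit without livers 19 and 21 (chosen after seeing the data) 4, against 0 in each fit that left out 1 liver. Over all genes, DESeq2 called 158 of 12786, the fit of all 16 libraries 152 of 13830 and the fit without livers 19 and 21 1525 of 12819. In the HFLMCD comparison DESeq2 called 5, log2(FPKM + 1) 0, log2(FPKM + 0.1) 0, the fit of all 16 libraries 0, and fits that left out 1 liver 0 to 4. Over all genes these called 1941, 1446 and 1492 of 13658, and 336 of 13830 in the fit of all 16 libraries. Leaving out 1 liver called from 400 of 13774 genes (liver 16) to 1722 of 13761 (liver 14). For the difference between effects, no filter gave 0 calls, DESeq2 2, leaving out 1 liver 0 to 3, and leaving out livers 19 and 21 3. Over all genes, no filter called 253 of 17392, DESeq2 981 of 13830 and leaving out livers 19 and 21 2595 of 13943. Leaving out 1 liver called from 120 of 13941 genes (liver 24) to 1683 of 13959 (liver 21). DESeq2 gave no adjusted p for Igtp and Zbp1 there, nor for Igtp, Tgtp1 and Zbp1 in the NASH comparison. Between controls the median was 1.41 on log2(FPKM + 1), 1.73 on log2(FPKM + 0.1), and 1.13 to 1.27 without 1 liver. The sign turned there on both FPKM scales for Bst2 (0.24 and 0.24) and Iigp1 (0.16 and 0.17). In the NASH comparison, leaving out 1 liver moved Irf7 from -0.02 to 0.79, Stat2 from -0.03 to 0.08, Mx1 from -0.09 to 0.29, Irgm1 from -0.15 to 0.63 and Iigp1 from -0.27 to 0.44. Without livers 19 and 21, Irf7 was -0.02, Irgm1 -0.16 and Iigp1 -0.34. In the HFLMCD comparison the ranges were -0.04 to 0.12 for Stat2, -0.07 to 0.43 for Isg15, -0.07 to 0.19 for Oasl1 and -0.16 to 0.01 for Psmb8, and Stat2 was -0.02 on log2(FPKM + 1) and -0.02 on log2(FPKM + 0.1). The cause of these shifts was not tested. Depth limits Mx1 most, with as few as 13.2 expected counts in a liver.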
